A study of Arabidopsis thaliana with 6 samples.

Results

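The 10 genes described here are abscisic acid and cold response genes of Arabidopsis thaliana, chosen by their gene identifiers: NCED3 (AT3G14440), ABI1 (AT4G26080), ABI2 (AT5G57050), HAB1 (AT1G72770), ABI5 (AT2G36270), RD29A (AT5G52310), RD29B (AT5G52300), COR15A (AT2G42540), KIN1 (AT5G15960) and RAB18 (AT5G66400). They are 10 of the 26726 genes in the deposited expression table. RNA was sequenced from root explants of 3 genotypes: Pro35SARR1, in which the name places ARR1 behind the broadly active 35S promoter, the arr1 single mutant, and wild type (WT). All explants were kept for 5 days on callus-inducing medium (CIM) and then for 7 days on shoot-inducing medium (SIM), under continuous light at 22 °C. SIM contained N6-(2-isopentenyl)adenine, a cytokinin, at 1 mg/L and the auxin IAA at 0.15 mg/L, and no abscisic acid or cold treatment is named in the labels. The comparisons ask whether the RNA levels of these genes follow the genotype at ARR1, a type-B response regulator that carries the cytokinin signal into transcription. The labels give neither the lesion of the arr1 allele, nor the number of transgenic lines, nor the age of the plants.

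Abscisic acid (ABA) is the hormone through which plants respond to drought, salt and cold. It is made from carotenoids, and NCED enzymes catalyse the limiting cleavage. ABA bound by PYR/PYL receptors holds clade A PP2C phosphatases inactive, which frees SnRK2 kinases to phosphorylate bZIP factors such as ABI5 and the ABFs, and these bind the ABA-responsive element (ABRE). Cold acts largely beside this route, through the CBF factors, which bind the C-repeat (CRT). RD29A, COR15A and KIN1 are induced through both routes, RD29B and RAB18 mainly through ABA, and their products belong to the hydrophilic proteins that build up in cells losing water.

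There were 6 libraries, with a replicate 1 and a replicate 2 for each genotype. Whether these are separate cultures is not labelled, and p-values then reflect spread between libraries that could be technical. The sum of estimated counts ranged from 8193313 to 9381532 per library. ARR1 had 1725 and 1909 CPM (counts relative to a fixed library size) in Pro35SARR1, 61.2 and 58.6 CPM in arr1, and 61.3 and 59.8 CPM in WT. The Pro35SARR1 level was 29.99-fold that of WT (log2 fold change 4.91, SE 0.117, edgeR adjusted p = 0.000397). The arr1 level did not differ from that of WT beyond its error (log2 fold change −0.02, 95% interval −0.27 to 0.24), so a direction drawn from the libraries labelled arr1 rests on their label. Markers of callus and root meristem (WOX5, PLT1, PLT2, SCR, LBD16, LBD18, LBD29), none of them at 0 in every library, summed to 25.8 and 22.6 CPM in Pro35SARR1, 52.96 and 44.9 CPM in arr1, and 33.3 and 26.1 CPM in WT. Of 6 seed and embryo markers, CRA1, CRU3, OLEO1 and AT2S3 were listed at 0 in all libraries.

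Measured per length, as the deposited FPKM (fragments per kilobase of transcript, scaled to library size), the 10 genes formed 3 levels. KIN1 averaged 34.6 FPKM over the 6 libraries, ABI1 28.1 FPKM and HAB1 16.3 FPKM. A second level, below the first, held ABI5 at 3.96 FPKM, RD29A at 2.99 FPKM, ABI2 at 2.84 FPKM, COR15A at 2.34 FPKM and NCED3 at 1.20 FPKM. RD29B and RAB18 were listed at 0 in all 6 libraries. KIN1 and ABI1 are not separated in this order, since KIN1 averaged 48.4 ± 39.9 FPKM in Pro35SARR1, 12.05 ± 5.05 FPKM in arr1 and 43.3 ± 34.5 FPKM in WT (SD, n = 2 each). Neither is RD29A separated from ABI5, ABI2 and COR15A, because its mean in each genotype has an SD of more than 1 FPKM: 2.87 ± 3.31 FPKM in Pro35SARR1, 4.27 ± 2.64 FPKM in arr1 and 1.83 ± 1.24 FPKM in WT (SD, n = 2 each). In arr1, ABI5 averaged 5.77 ± 0.30 FPKM, ABI2 3.05 ± 0.57 FPKM and COR15A 2.68 ± 0.53 FPKM (SD, n = 2 each). In WT they lay closer together, at 2.67 ± 0.34, 2.31 ± 0.11 and 2.26 ± 0.26 FPKM (SD, n = 2 each). The other genes of the pathway reached higher. Among 79 of them, the gene with the most RNA in each group was KIN2 at 1086 FPKM (cold targets), ZAT10 at 210.7 FPKM (cold regulators), PYR1 at 201.9 FPKM (receptors), SNRK2.2 at 83.8 FPKM (kinases), CYP707A4 at 73.95 FPKM (ABA breakdown), ATHB7 at 40.3 FPKM (transcription factors), ABA2 at 37.2 FPKM (ABA synthesis) and PP2CA at 31.6 FPKM (other PP2Cs).

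**Figure D1:**
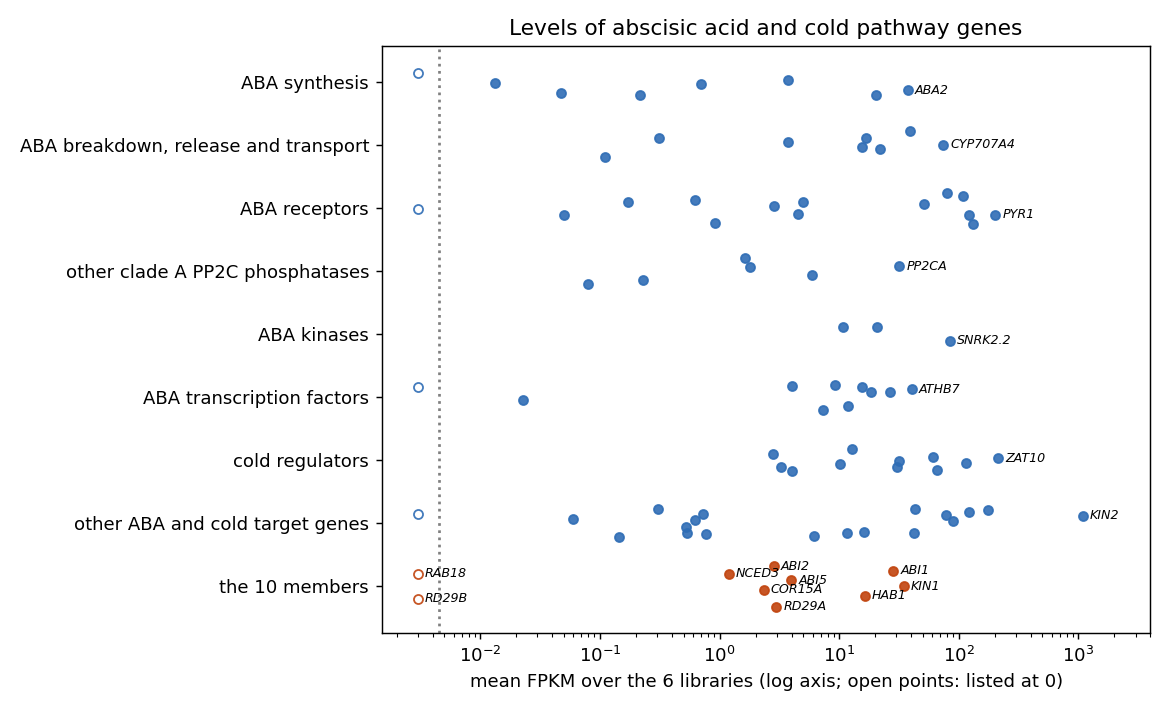
Mean level of each gene over the 6 libraries, on a log axis of FPKM, by group within the abscisic acid and cold pathway. Each point is 1 gene, the highest gene of each group is named, and open points stand for genes listed at 0 in all libraries. KIN1, ABI1 and HAB1 lie between 16.3 and 34.6 FPKM, 5 members lie between 1.20 and 3.96 FPKM, and RD29B and RAB18 are at 0.

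A listed 0 is not proof of silence in this table. Of all genes 16.2% were listed at 0 in every library, and among them was ABA3, the molybdenum cofactor sulfurase that ABA synthesis and other pathways use. PYL9, an ABA receptor, was listed at 0 in replicate 1 of WT, beside 4.95 CPM in its replicate 2. In replicate 1 of Pro35SARR1 its estimated count was 0.000722, which rounds to 0, beside 3.69 CPM in replicate 2. RD29B and RAB18, each with 2 annotated isoforms, are therefore reported here only as listed at 0, and the other 8 genes passed the filter on low counts and were tested. In whole explants, a lower level can mean fewer cells with the transcript or less of it per cell, and these cannot be told apart.

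NCED3 encodes the dioxygenase that limits ABA synthesis under drought. Its level was 2.39 and 3.46 CPM in Pro35SARR1, 2.07 and 2.39 CPM in arr1, and 2.71 and 3.15 CPM in WT. All 6 libraries lay in a narrow, low range, with both arr1 libraries under both WT libraries. The fitted difference of arr1 from WT was −0.39 on the log2 scale (95% interval −1.34 to 0.56, edgeR adjusted p = 0.599), and that of Pro35SARR1 from WT was 0.00 (95% interval −0.93 to 0.93, edgeR adjusted p = 1). These intervals leave room for a change of nearly 2-fold in Pro35SARR1 and of more than that in arr1. Of the other NCED genes, NCED6 and NCED9 did not exceed 0.342 CPM in any library, and NCED2 did not exceed 1.02 CPM. NCED5 had 1.71 and 4.25 CPM in Pro35SARR1, 0 and 0.569 CPM in arr1, and 0.451 and 1.01 CPM in WT.

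ABI1, ABI2 and HAB1 are clade A PP2C phosphatases, the ABA co-receptors that keep SnRK2 kinases off when the hormone is absent. In their coding sequences ABI1 and ABI2 are 72.6% identical, and ABI1 and HAB1 54.9% identical. ABI1 had 58.7 and 52.96 CPM in Pro35SARR1, 52.4 and 55.2 CPM in arr1, and 64.6 and 45.8 CPM in WT. The 2 WT libraries enclosed all the others. Its fitted difference from WT was 0.02 on the log2 scale in Pro35SARR1 (95% interval −0.43 to 0.46) and −0.04 in arr1 (95% interval −0.48 to 0.41), so a change of 2-fold lies outside both intervals. HAB1 had 44.96 and 31.2 CPM in Pro35SARR1, 43.3 and 43.2 CPM in arr1, and 50.3 and 34.2 CPM in WT. Again the libraries of the genotypes overlapped, with log2 differences from WT of −0.15 in Pro35SARR1 (95% interval −0.76 to 0.46) and 0.03 in arr1 (95% interval −0.57 to 0.64). Isoform HAB1.1 held 65.4% to 86.2% of the HAB1 count in each library. ABI2 was the lowest of the 3, with 7.97 and 4.58 CPM in Pro35SARR1, 6.89 and 5.35 CPM in arr1, and 4.51 and 4.72 CPM in WT. Both arr1 libraries lay above both WT libraries, while those of Pro35SARR1 overlapped with WT. The log2 difference from WT was 0.44 (SE 0.353) in Pro35SARR1 and 0.41 (SE 0.353) in arr1, neither past the threshold. Among their relatives PP2CA was at 42.9 and 46.7 CPM in Pro35SARR1, 51.6 and 48.6 CPM in arr1, and 52.3 and 48.8 CPM in WT. HAB2 was less even, at 5.24 and 10.05 CPM in Pro35SARR1, 16.4 and 17.9 CPM in arr1, and 24.8 and 10.3 CPM in WT. Of HAI1, HAI2 and HAI3, the highest value in any library was 5.30 CPM.

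ABI5 encodes a bZIP factor that binds the ABRE and is best known from the ABA arrest of germinating seedlings. It had 6.72 and 4.36 CPM in Pro35SARR1, 9.88 and 8.996 CPM in arr1, and 4.74 and 3.93 CPM in WT. Both arr1 libraries stood above the other 4, and those of Pro35SARR1 overlapped with WT. With genotype alone in the fit, the arr1 level was 2.17-fold that of WT (log2 fold change 1.12, SE 0.303, edgeR adjusted p = 0.110) and did not pass the threshold of 0.05. With the replicate number as a block, it passed (log2 fold change 1.13, SE 0.254, edgeR adjusted p = 0.0373). Pro35SARR1 was at 0.587 times the arr1 level (log2 fold change −0.77, SE 0.298, edgeR adjusted p = 0.183, and 0.0767 with the replicate block). Both contrasts use the same arr1 libraries. Beside ABI5, the summed markers of callus and root meristem and of guard cells, a cell type that responds to ABA, were also highest in the 2 arr1 libraries. Guard cell markers summed to 5.58 and 7.60 CPM in Pro35SARR1, 13.6 and 16.97 CPM in arr1, and 8.91 and 7.76 CPM in WT, with SCRM2 giving most of each sum (10.6 and 13.7 CPM in arr1) and FAMA at most 1.82 CPM. Of the other guard cell markers, MYB60 and KAT1 were lower in arr1: MYB60 had 0.574 and 0.342 CPM in arr1 and 1.69 and 1.46 CPM in WT, and KAT1 had 0.115 and 0.114 CPM in arr1 and 1.58 and 0.674 CPM in WT. Whether any of these markers has a part in the ABI5 values was not tested. Its bZIP relatives ABF1, ABF2, ABF3 and ABF4 were at 11.3 to 53.4 CPM across all libraries, and none passed the threshold between genotypes.

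The 250 bases before the annotated start of ABI5 are shown because they are the richest in ABRE cores among the 10 genes. They lie at chr2:15207637-15207886 on the minus strand of TAIR10.1, the RefSeq assembly, and capitals mark every match to ACGTG or its reverse complement CACGT.
ABI5: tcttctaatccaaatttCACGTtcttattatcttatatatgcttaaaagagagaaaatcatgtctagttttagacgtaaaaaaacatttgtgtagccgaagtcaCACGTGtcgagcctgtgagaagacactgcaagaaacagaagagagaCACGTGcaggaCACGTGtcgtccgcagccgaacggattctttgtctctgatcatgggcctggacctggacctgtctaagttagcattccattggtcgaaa
Matches were counted on both strands from 250 bases before to 50 bases after each annotated start, and ABI5 had 7. They include 3 CACGTG palindromes, each of which counts on both strands. Over 27443 such windows of the genome, 26.7% held at least 1 ABRE core, against 6 of the 10 genes. The CRT core CCGAC, or GTCGG, was in 15% of windows and in 3 of the 10 genes. AGATT or AATCT, a core bound by type-B response regulators such as ARR1, was in 69.7% of windows and in 2 of the 10 genes, COR15A and ABI2. No other letters were scanned for these regulators, so the count does not cover variants of the core. These are counts of letters and not of bound sites.

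**Figure D2:**
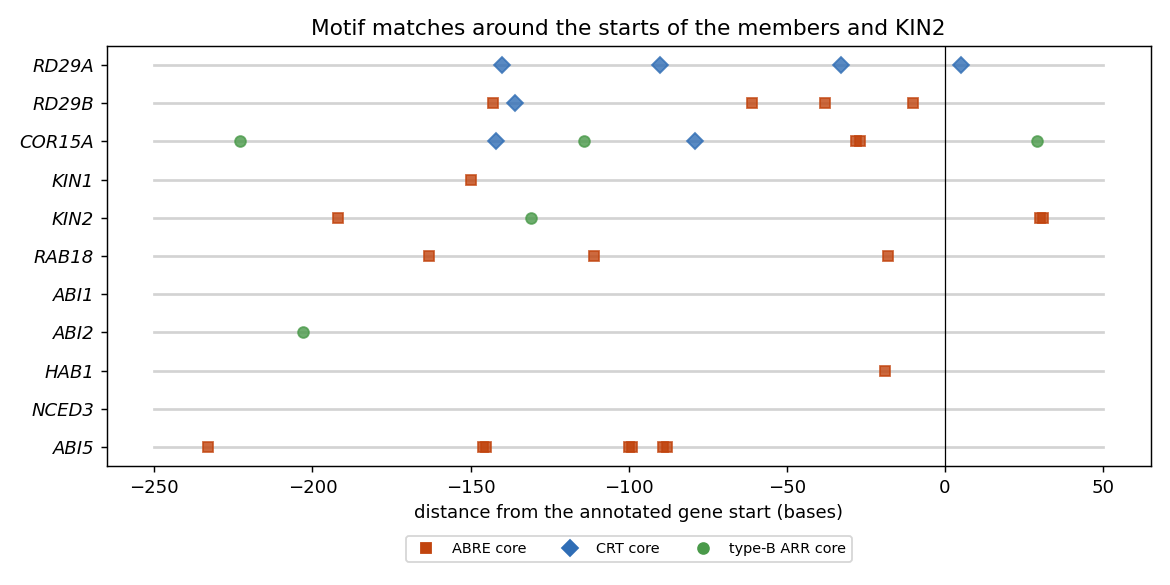
Positions of the 3 motif cores around the annotated starts of the 10 genes and KIN2, as distance from the start in bases (negative: before it). Each symbol is 1 match on either strand, and a palindrome gives neighbouring symbols. Within these windows, RD29A carries 4 CRT cores and no ABRE core, and RD29B 4 ABRE cores and 1 CRT core. ABI5 has 7 ABRE matches, and the windows of ABI1 and NCED3 carry none of the 3 motifs.

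RD29A and RD29B are neighbours in tandem on chromosome 5, with coding sequences 56% identical, and both encode hydrophilic stress proteins. Their upstream sequences are shown because the neighbours differ in their motifs, and RD29A was detected while RD29B was listed at 0. RD29A lies after chr5:21240467-21240716 and RD29B after chr5:21236771-21237020, both on the plus strand of TAIR10.1, and capitals mark ABRE and CRT cores.
RD29A: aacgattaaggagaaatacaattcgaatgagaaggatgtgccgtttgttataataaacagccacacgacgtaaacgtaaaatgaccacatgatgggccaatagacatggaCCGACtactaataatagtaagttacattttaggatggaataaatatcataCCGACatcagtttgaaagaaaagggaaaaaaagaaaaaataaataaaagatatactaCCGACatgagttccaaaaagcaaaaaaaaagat
RD29B: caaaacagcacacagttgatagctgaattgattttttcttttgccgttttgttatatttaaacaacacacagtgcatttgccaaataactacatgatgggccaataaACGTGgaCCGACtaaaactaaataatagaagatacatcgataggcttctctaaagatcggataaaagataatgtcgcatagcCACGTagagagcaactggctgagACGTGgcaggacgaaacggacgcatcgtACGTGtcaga
In the RD29A sequence all 3 capital runs are the CRT core CCGAC, and 1 more match begins 5 bases after the start. The RD29A window ended at 21240766, before the deposited start of the gene at 21240849. The bases between were not scanned, so the absence of an ABRE core holds for this window only. In RD29B, 4 runs are ABRE cores and 1 is a CRT core. RD29A had 12.9 and 1.34 CPM in Pro35SARR1, 15.3 and 5.92 CPM in arr1, and 6.65 and 2.36 CPM in WT, while RD29B was listed at 0 in each. Replicate 1 was the higher library of every genotype, and the genotypes overlapped. The fitted level was 1.57-fold that of WT in Pro35SARR1 (log2 fold change 0.65, SE 1.06, edgeR adjusted p = 0.890) and 2.35-fold in arr1 (log2 fold change 1.23, SE 1.05, edgeR adjusted p = 0.539). The SEs correspond to an interval for arr1 over WT from −1.37 to 3.83 on the log2 scale, so these libraries neither show nor exclude a several-fold change. Leaving out replicate 1 of Pro35SARR1 turned its log2 difference from WT to −1.74.

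KIN1 encodes a small cold-induced protein and has a tandem copy, KIN2, with a coding sequence 95% identical over 201 bases. Both upstream sequences are shown because the copies are near-identical and KIN2 had far more RNA. KIN1 lies after chr5:5209467-5209716 and KIN2 after chr5:5211469-5211718, both on the plus strand of TAIR10.1, with ABRE cores in capitals.
KIN1: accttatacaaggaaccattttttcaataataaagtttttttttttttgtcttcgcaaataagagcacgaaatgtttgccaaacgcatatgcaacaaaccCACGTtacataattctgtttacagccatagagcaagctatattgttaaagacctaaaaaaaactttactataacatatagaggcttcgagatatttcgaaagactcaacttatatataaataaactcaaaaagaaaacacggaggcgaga
KIN2: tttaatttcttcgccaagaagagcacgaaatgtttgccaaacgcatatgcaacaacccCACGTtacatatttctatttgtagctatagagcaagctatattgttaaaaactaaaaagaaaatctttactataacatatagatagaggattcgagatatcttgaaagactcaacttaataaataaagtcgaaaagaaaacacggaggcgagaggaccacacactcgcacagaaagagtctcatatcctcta
In a global alignment the upstream sequences were identical in 185 of 295 columns (62.7%), and each holds 1 CACGT. Each sequence has 250 bases, so the columns include gaps, and the percentage understates the identity of the aligned bases. The annotated starts are offset between the copies: the CACGT begins 150 bases before the start of KIN1 and 192 bases before that of KIN2. KIN2 has a CACGTG palindrome beginning 30 bases after its start as well. Given the offset, the matching stretch of KIN1 lies beyond the 50 bases scanned after its start, so the copies were not compared there. KIN1 had 28.1 and 7.15 CPM in Pro35SARR1, 5.74 and 3.07 CPM in arr1, and 24.5 and 6.74 CPM in WT. Both arr1 libraries lay under all 4 others, and replicate 1 exceeded replicate 2 in each genotype. With genotype alone, KIN1 was 3.53-fold lower in arr1 than in WT (log2 fold change −1.82, SE 0.881, edgeR adjusted p = 0.294) and did not pass. With the replicate block it passed (log2 fold change −1.69, SE 0.295, edgeR adjusted p = 0.0187). Likewise Pro35SARR1 over arr1 gave a log2 fold change of 2.00 (SE 0.881, edgeR adjusted p = 0.229) without the block and 1.84 (SE 0.294, edgeR adjusted p = 0.0120) with it. Pro35SARR1 and WT did not differ beyond the error (log2 fold change 0.18, SE 0.813, and 95% interval −0.48 to 0.79 with the block). The size of these differences depended on which libraries were in the fit. Without WT replicate 1, the log2 fold change of arr1 over WT was −0.62, and without WT replicate 2 it was −2.48. Without Pro35SARR1 replicate 1, that of Pro35SARR1 over arr1 was 0.70, and without its replicate 2 it was 2.68.

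Because reads of near-identical copies can be split between them, KIN1 was also set beside KIN2. KIN2 had 507.3 and 218.9 CPM in Pro35SARR1, 348.2 and 177.8 CPM in arr1, and 352.6 and 285.5 CPM in WT, with all genotypes overlapping. KIN1 made up 5.26% and 3.19% of the summed pair in Pro35SARR1, 1.63% and 1.72% in arr1, and 6.49% and 2.31% in WT. Since the counts of KIN1 are few beside those of KIN2, the KIN1 values are uncertain wherever reads of the pair were split.

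COR15A, a chloroplast protein that protects membranes during freezing, and RAB18, a dehydrin, complete the targets. COR15A had 0.683 and 1.68 CPM in Pro35SARR1, 1.84 and 1.37 CPM in arr1, and 1.24 and 1.35 CPM in WT. Its values are near the level of 3 counts, which is 0.320 to 0.366 CPM in these libraries, a limit that covers counting error only. Both arr1 libraries were just above those of WT, with a log2 difference of 0.30 and an interval from −1.12 to 1.73, and that of Pro35SARR1 from WT was −0.13 (95% interval −1.59 to 1.32). COR15B, 82.6% identical in coding sequence, was at 0.112 to 0.689 CPM. RAB18 was listed at 0. Its upstream sequence is printed beside the others for its 3 ABRE cores, in capitals, and lies at chr5:26519448-26519697 on the minus strand of TAIR10.1.
RAB18: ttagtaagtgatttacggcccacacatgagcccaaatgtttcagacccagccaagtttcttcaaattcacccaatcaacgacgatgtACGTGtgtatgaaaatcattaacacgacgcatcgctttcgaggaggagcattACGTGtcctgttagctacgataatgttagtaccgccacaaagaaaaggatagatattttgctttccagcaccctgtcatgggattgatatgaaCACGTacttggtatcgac
Within these windows, the number of ABRE cores did not sort the genes by detection. RD29B with 4 and RAB18 with 3 were listed at 0, while ABI5 with 7 was detected in every library. KIN1 with 1 and RD29A with none were detected in every library as well. These counts depend on where the annotated starts place the windows, and sequence outside them was not scanned.

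**Figure D3:**
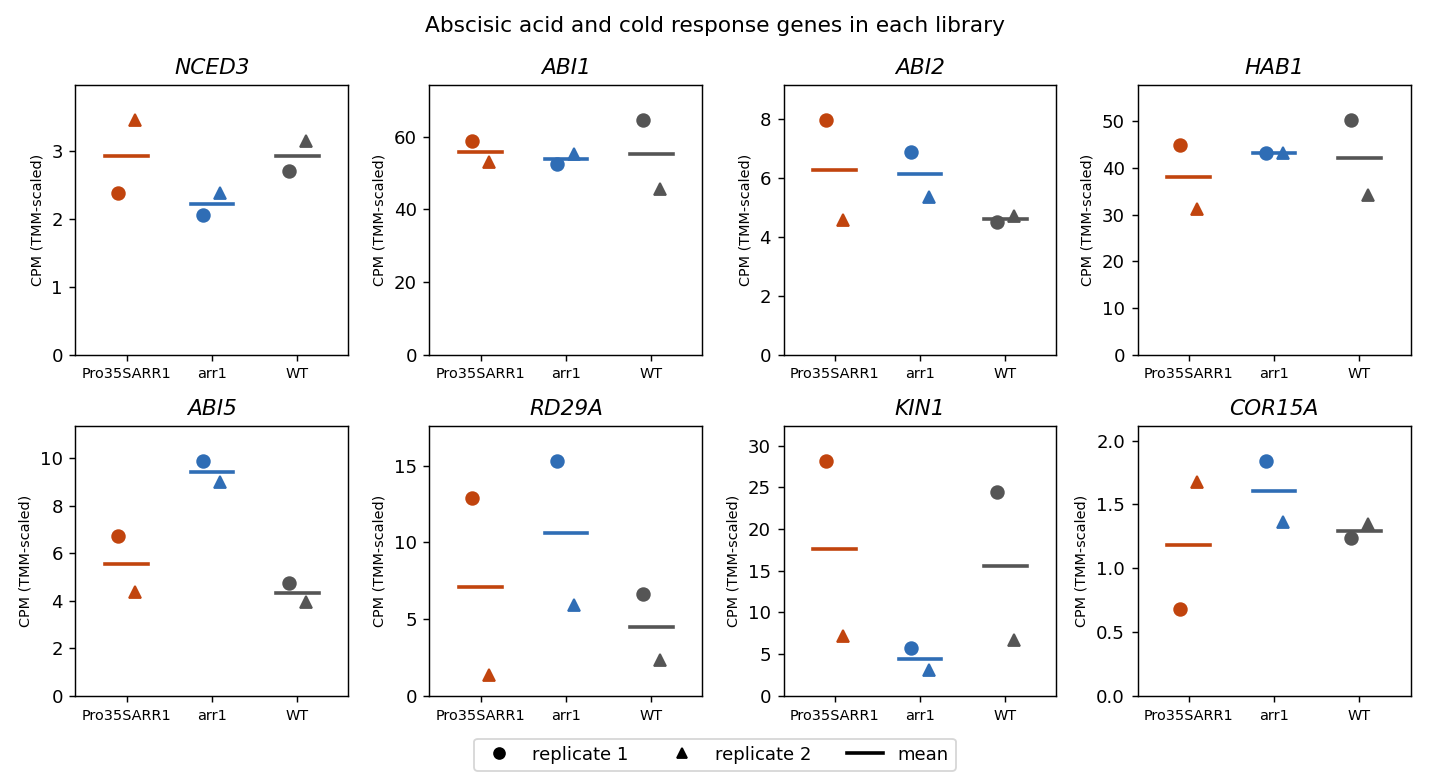
TMM-scaled CPM of the 8 genes that were tested, in each library. Circles are replicate 1, triangles replicate 2 and lines the mean of the 2 libraries of a genotype. In ABI5 both arr1 libraries (9.88 and 8.996 CPM) lie above all others, in KIN1 both (5.74 and 3.07 CPM) lie below all others, and RD29A and KIN1 are higher in replicate 1 of each genotype.

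Counted together, 0 of the 8 tested genes passed in arr1 against WT, where 2.99% of all 18083 tested genes did. In Pro35SARR1 against WT 0 of 8 passed, against 0.0885% of all genes, and in Pro35SARR1 against arr1 0 of 8, against 6.47%. At an unadjusted p under 0.05 in edgeR, 1, 0 and 1 of the 8 were past the threshold in these 3 comparisons. In Pro35SARR1 against WT, 1762 of all 18083 genes were past it. For the comparisons with arr1 no share of all genes is set beside the unadjusted counts, and nothing is drawn from them. DESeq2 and limma called 0 of the 8 in each comparison. With shares at the adjusted threshold this small, no call among 8 genes is what the background alone would give. With the replicate block, 2 of 8 passed in arr1 against WT (ABI5 higher, KIN1 lower) beside 15.7% of all genes, 0 of 8 in Pro35SARR1 against WT beside 2.07%, and 1 of 8 (KIN1 higher) in Pro35SARR1 against arr1 beside 20.3%. The libraries did not overlap between arr1 and WT for 5 of the 8 genes, against 54.3% of all genes. Between Pro35SARR1 and WT this held for 0 of 8, against 37.2%, and between Pro35SARR1 and arr1 for 2 of 8, against 58.9%. The median log2 fold change of the 8 genes was 0.17 in arr1 against WT, 0.10 in Pro35SARR1 against WT and −0.07 in Pro35SARR1 against arr1, where the medians of all tested genes were 0.00, 0.00 and −0.02. None of the 10 genes is in the authors' deposited table of 437 genes called between arr1 and WT.

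**Figure D4:**
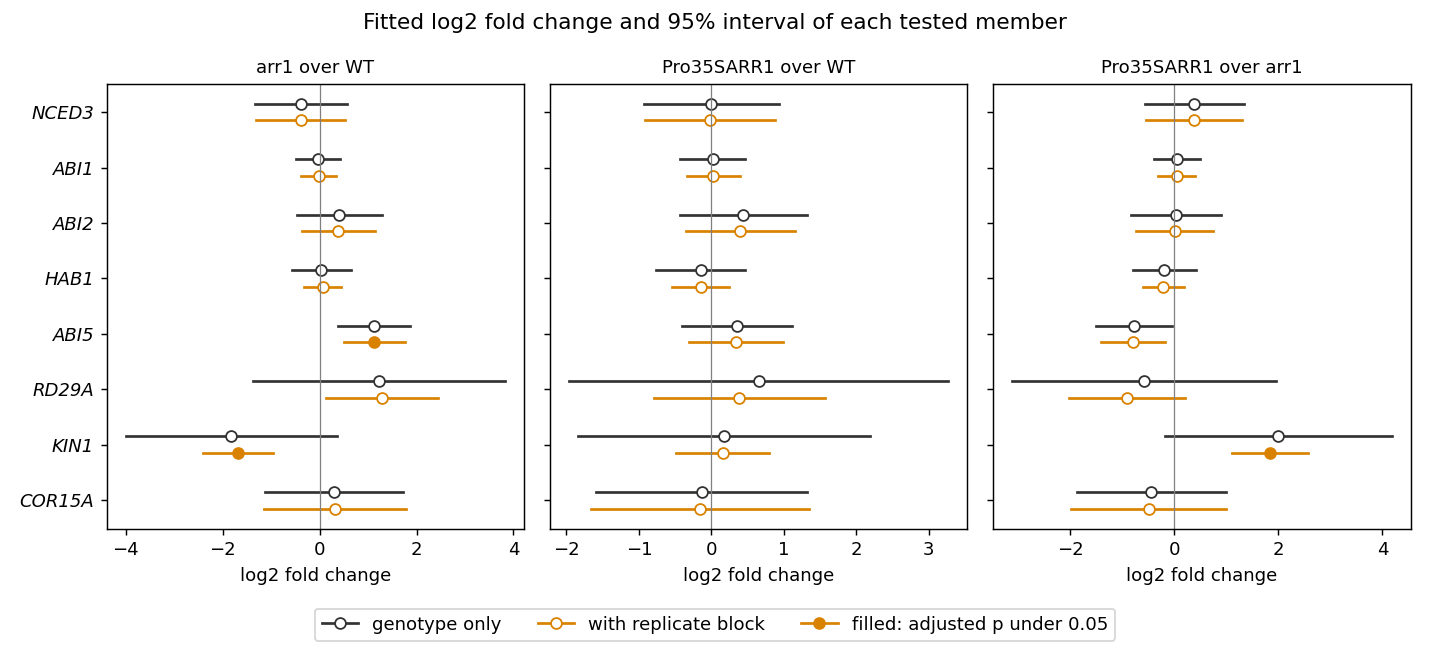
Fitted log2 fold changes of the 8 tested genes with 95% intervals, for 3 comparisons, each named as the first genotype over the second. Grey lines are from the fit with genotype only, orange lines from the fit with the replicate block, and filled points have an edgeR adjusted p under 0.05. ABI1 and HAB1 sit near 0 with short intervals, RD29A has the widest intervals, and only ABI5 and KIN1 have filled points.

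Around the 10 genes, 56 of the 79 other pathway genes were tested, and few passed with genotype alone. In arr1 against WT, 0 passed as higher and 1 as lower, where 1.09% and 1.9% of all genes did. That gene was PYR1, an ABA receptor, which fell to 110.2 and 105.0 CPM in arr1, against 166.7 and 166.0 CPM in WT (log2 fold change −0.63, SE 0.0896, edgeR adjusted p = 0.0372). It missed the threshold whenever 1 library was left out, at adjusted p-values from 0.0839 to 0.277, with log2 fold changes from −0.66 to −0.59. In Pro35SARR1 against arr1, 2 genes passed as higher and 1 as lower, where 4.09% and 2.38% of all genes did. ABA2, the short-chain dehydrogenase of ABA synthesis, rose to 44.5 and 47.3 CPM in Pro35SARR1, against 25.6 and 29.9 CPM in arr1 (log2 fold change 0.72, SE 0.136, edgeR adjusted p = 0.0411). CYP707A1, an ABA hydroxylase that inactivates the hormone, rose to 65.2 and 45.5 CPM in Pro35SARR1, against 20.3 and 25.3 CPM in arr1 (log2 fold change 1.28, SE 0.242, edgeR adjusted p = 0.0418). SNRK2.3, one of the ABA-activated kinases, fell to 20.3 and 21.1 CPM in Pro35SARR1, against 36.1 and 40.2 CPM in arr1 (log2 fold change −0.88, SE 0.126, edgeR adjusted p = 0.0234). All 3 lost the call when any library of Pro35SARR1 or arr1 was left out, and ABA2 also without either WT library, at adjusted p-values from 0.0513 to 0.220. The deposited locus of ABA2 runs from 19417622 to 19491648 on chromosome 1 and reaches past the gene's RefSeq annotation, which starts at 19489794. In Pro35SARR1 against WT no pathway gene passed in edgeR with genotype alone, 7 of the 56 had an unadjusted p under 0.05, and DESeq2 called 1. Of all 18083 genes, 1762 had an unadjusted p under 0.05 in edgeR in this comparison, and DESeq2 called 279. CYP707A1, at 15.6 and 20.6 CPM in WT, passed there with the replicate block (log2 fold change 1.62, SE 0.242, edgeR adjusted p = 0.0409).

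With the replicate block, 10 of the 56 genes passed as higher and 3 as lower in arr1 against WT, where 6.23% and 9.51% of all genes did. The clearest was RD22, a dehydration-induced gene, which rose to 126.6 and 86.2 CPM in arr1, against 43.4 and 31.1 CPM in WT (log2 fold change 1.51, SE 0.0871, edgeR adjusted p = 0.00228, and 0.0535 with genotype alone). Of 11 cold regulators 4 passed as higher (CBF1, CBF2, ZAT10 and MYB15) and 0 as lower. All 11 had a fitted log2 fold change above 0, and their median was 0.54 with genotype alone, where the median of all genes was 0.00. With genotype alone 0 of 11 passed in edgeR, where 2.99% of all genes did. DESeq2 called 1 of the 11, beside 1405 of all genes. Limma called 0, beside 765 of all genes on log2(FPKM + 1) and 659 on log2(FPKM + 0.1). In edgeR 1 of the 11 had an unadjusted p under 0.05, and without a share of all genes nothing is drawn from it. CBF2 was at 20.7 and 62.1 CPM in arr1 and 12.6 and 23.3 CPM in WT, so its genotypes overlapped unless libraries of 1 replicate number were compared. Among cold targets LTI30, a dehydrin, and COR27 passed as higher beside RD22, and in ABA breakdown and release CYP707A3 and BG1, the glucosidase that frees ABA from its conjugate, passed as higher. SNRK2.3 passed as higher too, and ABA2, PYR1 and PYL5 passed as lower. In Pro35SARR1 against arr1 the block gave 4 genes higher and 11 lower of 56, where 11.5% and 8.82% of all genes passed. The comparison shares the arr1 libraries with the first. Those higher were ABA2, NCED5, CYP707A1 and PYR1, and those lower were RD22, CBF1, CBF2, ZAT10, RAV1, COR27, CYP707A3, SNRK2.3, AIT1, ATHB7 and BG1. The summed callus and root meristem markers were highest in arr1, as given above, with SCR giving most of the sum (44.8 and 38.5 CPM in arr1). PLT1, PLT2 and LBD16 were also highest in both arr1 libraries. WOX5 overlapped between arr1 and WT, and LBD18 overlapped between all genotypes. LBD18 had 1.59 and 2.68 CPM in Pro35SARR1, 1.84 and 2.05 CPM in arr1, and 1.01 and 2.14 CPM in WT. The part of these markers was not tested.

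Library totals in place of TMM scaling moved the median of all genes by 0.13 in arr1 against WT and by −0.13 in Pro35SARR1 against arr1. The median of the ABA kinases was −0.11 under TMM and 0.01 under library totals in the first, and 0.03 under TMM and −0.08 under library totals in the second. That of the receptors was 0.01 under TMM and −0.10 under library totals in the second. The other PP2Cs had a median of −0.02 in arr1 against WT under TMM and 0.10 under library totals. The sign of these group medians depended on the scaling.

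RD29A and KIN1 were also higher in replicate 1 than in replicate 2 of every genotype. This contrast was examined after the values had been seen, as the replicate term of the fit with the block. KIN1 passed in it, at 3.18-fold in replicate 1 over replicate 2 (log2 fold change 1.67, SE 0.231, edgeR adjusted p = 0.0321), where 2.96% of all genes passed, 1.43% as higher. Replicate 1 was 3.93 times replicate 2 in Pro35SARR1, 1.87 times in arr1 and 3.63 times in WT. RD29A gave a larger ratio with a larger error, at 9.59 times in Pro35SARR1, 2.58 times in arr1 and 2.82 times in WT (log2 fold change 1.94, SE 0.387, edgeR adjusted p = 0.0633, DESeq2 adjusted p = 0.00439). Replicate 1 exceeded replicate 2 in all 3 genotypes for 4 of the 8 tested genes, RD29A, KIN1, HAB1 and ABI5, against 24.8% of all genes, and it was below in all 3 for 1 of 8, NCED3, against 22.9%. The median of the 8 genes in this contrast was 0.35, where that of all genes was 0.00.

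The cold regulators stood the other way round from RD29A and KIN1 in the same contrast. All 11 had a fitted log2 fold change below 0 in replicate 1 over replicate 2, with a median of −0.44, and 3 passed as lower, where 1.53% of all genes did. CBF1 had 2.28, 4.36 and 2.37 CPM in replicate 1 of Pro35SARR1, arr1 and WT, against 7.71, 23.6 and 7.53 CPM in their replicate 2 (log2 fold change −1.99, SE 0.233, edgeR adjusted p = 0.0265). CBF2 (log2 fold change −1.21, SE 0.161, edgeR adjusted p = 0.0308) and ZAT10 (log2 fold change −0.77, SE 0.123, edgeR adjusted p = 0.0427) passed as well. On the other side, RD22 and ATHB7, an ABA-induced homeodomain factor, passed as higher in replicate 1 (log2 fold changes 0.51 and 0.60, edgeR adjusted p = 0.0329 and 0.0419). ABF3 (log2 fold change 1.11, edgeR adjusted p = 0.0633) and KIN2 (log2 fold change 0.83, edgeR adjusted p = 0.0655) did not pass. The other tested ABA and cold targets were mixed. RD22, KIN2 and COR413PM1 were higher in replicate 1 of every genotype, and COR27, COR28, ERD14 and P5CS1 were lower in it. COR47, ERD10 and LTI30 differed in direction between genotypes, as did the member COR15A. Of the 10 ABA transcription factors 8 were tested, and 6 had a log2 fold change above 0. Summed callus and root meristem markers were higher in replicate 1 of each genotype, as given above, with SCR making up most of each sum. LBD18 went the other way in all 3, with 1.59, 1.84 and 1.01 CPM in replicate 1 of Pro35SARR1, arr1 and WT, against 2.68, 2.05 and 2.14 CPM in their replicate 2, and LBD16 was lower in replicate 1 of Pro35SARR1 and WT. Their part in these differences was not tested. The labels do not say what the replicate number stands for.

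**Figure D5:**
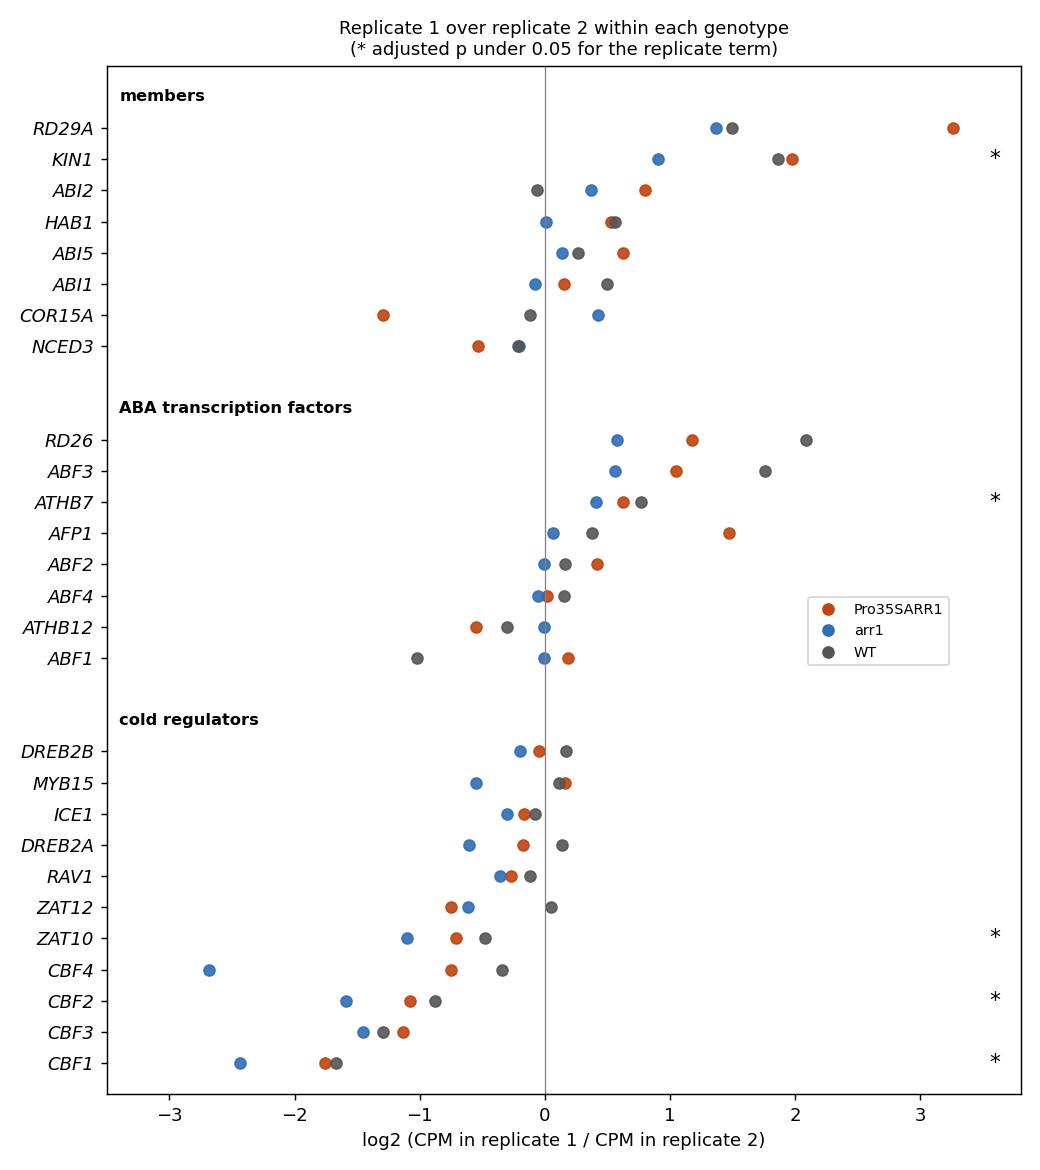
Log2 ratio of CPM in replicate 1 over replicate 2 within each genotype, for the tested members, the ABA transcription factors and the cold regulators. Each point is the ratio of 2 libraries of 1 genotype, and asterisks mark an edgeR adjusted p under 0.05 for the replicate term. RD29A and KIN1 lie to the right in all 3 genotypes, and CBF1, CBF2 and CBF3 lie to the left in all 3.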

How the data were processed

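The data are Illumina libraries of total RNA from root explants, 6 in all and 2 per genotype, with groups and replicate numbers from the sample titles. Pro35SARR1 is the genotype that the series text abbreviates AOE, by exclusion of the others. CASAVA and DESeq are listed in the submitters' processing notes, with no version or role. For the aligner, quantifier, build and strand setting the entry is: not given in the sources used here. Overlapping genes and close copies may therefore share reads. Per the file headers, the main deposited table lists 35593 isoforms of 26726 genes, with an estimated count and an FPKM for each library. A second table, the authors' deposited list for arr1 and WT, has adjusted p-values (at most 0.00983) and log2 fold changes of 437 genes, and was used only to look up names. Where a gene had 1 isoform and low counts, 90.5% to 91.9% of the estimated counts were whole multiples, within 0.02, of a step that differed between libraries (0.854 to 1.15).

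Counts were summed over isoforms, rounded to whole numbers and fitted in R 4.3.3 with edgeR 4.0.16 (quasi-likelihood test), using filterByExpr, TMM scaling, 1 mean per genotype and all 6 libraries in the fit. Of all genes 18083 were tested, and Benjamini-Hochberg adjusted p-values over them under 0.05 counted as passing. CPM values are TMM-scaled. In simulated counts of 18083 genes for arr1 against WT, the test found 88% of the 4-fold and 20% of the 2-fold changes and wrongly called 4 genes. The simulation gave every gene the same biological coefficient of variation, 0.214, and no replicate effect. Its percentages therefore do not hold for genes that vary more between libraries, such as KIN1 and RD29A. Alternatives were DESeq2 1.42.0, limma 3.58.1 on log2(FPKM + 1) and log2(FPKM + 0.1), library totals alone, no filter, counts divided by the step, only the 2 genotypes compared, a replicate block and leaving out each library.

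Deviations from the genotype means were correlated between libraries that share a replicate number: Pearson's r over 14842 genes was 0.363 between arr1 and WT, 0.570 between Pro35SARR1 and WT and 0.366 between Pro35SARR1 and arr1. Replicate 1 and replicate 2 also separated along principal component 2, with 23.8% of variance. On this check the numbers were treated as pairing the libraries in the fits with the replicate block only. These fits are an alternative, since the labels do not say what the numbers mark. The main fit, with genotype alone, ignores any such pairing. The members, the gene lists and the tests were chosen with earlier results of these data known. Named genes outside the members are their nearest relatives, up to 3 genes per list and comparison that passed with and without the block, and the highest gene of each list. Genes named for the replicate term, as well as MYB15, PYL9 and ABA3, were named after their values were seen.

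Upstream sequences and coding sequences were read from RefSeq TAIR10.1 by its own annotation with Biopython 1.88. Deposited starts lie within 500 bp of TAIR10.1 starts for 97.4% of 25939 matched genes.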

Additional observations from a re-analysis of the deposited data

How the results depend on the processing

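The number of tested members that passed stayed at 0 in each of the 3 comparisons under every alternative, except with the replicate block (2 in arr1 against WT and 1 in Pro35SARR1 against arr1). Leaving out any 1 library gave 0 to 0 in each. The counts over all genes depended more on the setting. In arr1 against WT, 541 genes passed, against 346 with library totals alone, 312 without the filter, 2847 with the replicate block, 96 with only these genotypes in the fit, 1405 with DESeq2 and 0 to 37 with 1 library left out. In Pro35SARR1 against WT, 16 passed, all higher (1762 genes had an unadjusted p under 0.05), against 375 with the block (214 higher and 161 lower), 2 with only these genotypes, 279 with DESeq2 (197 higher and 82 lower), 36 with limma on log2(FPKM + 1), 8 on log2(FPKM + 0.1) and 1 to 4 with 1 library left out. In Pro35SARR1 against arr1, 1170 passed, against 3679 with the block, 1882 with DESeq2 and 5 to 1082 with 1 library left out. The share of higher genes among those passing was 36.6% in arr1 against WT and 63.0% with library totals alone, and 63.2% and 46.7% in Pro35SARR1 against arr1. The block changed no call of a member other than ABI5 and KIN1. The cause of these shifts was not tested.

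The genotype comparisons and the replicate term together gave 208 member fold changes under alternatives other than leaving out a library. Of these, 197 kept their direction and side of the threshold, 4 newly passed and 7 changed sign, each from a value near 0. Those newly passing were ABI5 and KIN1 with the replicate block, as given above, and RD29A in the replicate term with DESeq2. Under library totals alone, ABI1 was at 0.0869 in arr1 against WT and −0.0553 in Pro35SARR1 against arr1, and ABI2 at −0.0729 in Pro35SARR1 against arr1. NCED3 in Pro35SARR1 against WT was at −0.00355 without the filter, −0.0124 with the block, −0.000191 on log2(FPKM + 1) and −0.00773 on log2(FPKM + 0.1). With 1 library left out, these log2 fold changes took both signs. In Pro35SARR1 against WT they ranged from −0.21 to 0.28 for ABI1, −0.0120 to 0.78 for ABI2, −0.91 to 0.37 for COR15A, −0.44 to 0.15 for HAB1, −1.13 to 1.38 for KIN1, −0.29 to 0.24 for NCED3 and −1.74 to 1.58 for RD29A. In Pro35SARR1 against arr1 they ranged from −0.0225 to 0.13 for ABI1, −0.42 to 0.39 for ABI2, −1.21 to 0.0649 for COR15A, −0.47 to 0.0626 for HAB1 and −2.97 to 0.29 for RD29A. In arr1 against WT they ranged from −0.27 to 0.22 for ABI1 and −0.22 to 0.33 for HAB1. PYR1 also missed the threshold under library totals alone and with only the 2 genotypes compared, and ABA2 and CYP707A1 under library totals alone and without the filter (adjusted p from 0.0501 to 0.0764). At this depth COR15A and NCED3 rest on few counts per library.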
